A study of Mus musculus with 20 samples.

Results

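The genes described are 9 that encode proteins of mitophagy, the removal of whole mitochondria by autophagy, or channels of the outer mitochondrial membrane: Bnip3, Bnip3l, Fundc1, Pink1, Bcl2l13, Phb2, Vdac1, Vdac2 and Vdac3. They were taken by symbol from a table of 32285 genes, each symbol had 1 row, and all 9 passed the filter on low counts that left 15875 genes for testing. The samples were 20 tumours of B16F10, a mouse melanoma line labelled wild type, grown in immunocompetent C57BL/6 mice. Tumours had received propafenone with anti-PD-1 (the combination), propafenone alone, anti-PD-1 alone, or control IgG, with 5 tumours in each group. Propafenone, a blocker of sodium channels in the heart, is used against arrhythmia. The antibody anti-PD-1 blocks an inhibitory receptor carried by T cells. Injections were intraperitoneal and began near a tumour volume of 100 mm3, and tumours were excised on day 16. All 4 groups are whole tumours of 1 transplanted line, so host cells enter each library. The labels do not say whether each tumour came from its own animal, and p-values measure the spread between these tumours.

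Mitophagy begins when a mitochondrion is marked for the autophagosome, either by ubiquitin or by a receptor on its membrane. PINK1, a kinase that accumulates on depolarised mitochondria, phosphorylates ubiquitin and recruits the ligase Parkin. BNIP3, BNIP3L (also called NIX), FUNDC1 and BCL2L13 sit in the outer membrane and bind LC3-family proteins directly, and the prohibitin PHB2 does so from the inner membrane once the outer one has ruptured. Bnip3 and Bnip3l are induced in hypoxia through HIF-1, and NIX also clears mitochondria from maturing red blood cells. VDAC1, VDAC2 and VDAC3 are the beta-barrel pores through which ATP and metabolites cross the outer membrane. VDAC proteins are ubiquitinated by Parkin, VDAC1 docks hexokinase, and VDAC2 and VDAC3 bind erastin, a compound that triggers ferroptosis, the iron-dependent death by lipid peroxidation named in the title of the series.

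The start-site sequences below are shown because 2 of the genes that fell, Bnip3 and Vdac1, have one in the RefSeq promoter table (build GRCm38.p6). The Fundc1 window is shown because it holds none of the motifs searched. It lies wholly inside the gene, whose annotated 5′ end is at 17572325, and the bases before that end were not searched. Of the genes with a window, Fundc1, Phb2, Pink1 and Bcl2l13 did not pass the test in any comparison of all 20 tumours. Each sequence runs 5′ to 3′ on the strand of the gene, from 250 bases before to 50 bases after a transcription start. Capitals mark ACGTG, a core of the HIF response element, on either strand. The table held 7 starts for 6 of the 9 genes, and Bnip3l, Vdac2 and Vdac3 are named only.
Bnip3, chr7:138909457-138909756, minus strand: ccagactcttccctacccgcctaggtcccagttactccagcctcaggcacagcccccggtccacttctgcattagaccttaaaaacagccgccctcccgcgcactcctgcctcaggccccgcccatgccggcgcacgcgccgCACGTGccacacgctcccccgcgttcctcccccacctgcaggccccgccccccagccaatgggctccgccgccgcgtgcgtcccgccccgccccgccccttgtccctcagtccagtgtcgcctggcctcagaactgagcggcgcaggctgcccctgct
Vdac1, chr11:52360601-52360900, plus strand: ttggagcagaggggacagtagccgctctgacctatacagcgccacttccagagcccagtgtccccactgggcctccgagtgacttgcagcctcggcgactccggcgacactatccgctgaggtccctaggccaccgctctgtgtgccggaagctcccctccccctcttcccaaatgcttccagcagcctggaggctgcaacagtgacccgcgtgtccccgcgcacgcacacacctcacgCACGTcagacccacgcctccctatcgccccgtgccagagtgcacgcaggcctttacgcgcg
Phb2, chr6:124712039-124712338, plus strand: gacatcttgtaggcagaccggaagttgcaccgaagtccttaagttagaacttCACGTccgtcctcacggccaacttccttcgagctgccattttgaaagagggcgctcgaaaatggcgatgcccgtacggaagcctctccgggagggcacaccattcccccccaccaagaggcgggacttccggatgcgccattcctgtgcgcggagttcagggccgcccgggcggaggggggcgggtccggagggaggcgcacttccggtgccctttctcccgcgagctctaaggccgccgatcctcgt
Fundc1, chrX:17571958-17572257, minus strand: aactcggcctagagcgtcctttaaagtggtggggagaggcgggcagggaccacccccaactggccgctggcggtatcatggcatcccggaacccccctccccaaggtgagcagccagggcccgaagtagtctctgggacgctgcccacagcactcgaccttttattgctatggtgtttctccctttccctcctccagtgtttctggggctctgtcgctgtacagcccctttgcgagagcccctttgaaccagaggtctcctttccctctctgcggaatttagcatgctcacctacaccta
The Bnip3 window held ACGTG at 2 overlapping places, at bases -108 and -107, which together form the palindrome CACGTG. The Vdac1 window had 1 ACGTG, at base -11, and the Phb2 window, shown as the third with a match, had 1 at base -198. That Phb2 window ends at 124712338, and the gene's annotated 5′ end is at 124712336. Base -198 is therefore counted from a start that lies before the annotated gene. The windows of Pink1, Bcl2l13, Fundc1 and the other Vdac1 start had 0. Among all 32851 windows of this length, 19.6% held ACGTG on either strand, and 7.15% held CACGTG. Among 42 windows of the HIF target genes counted further on, not all of them named, 25 held ACGTG, 24 held GCGTG and 2 held CACGTG. The related core GCGTG, counted on both strands with any overlap with ACGTG allowed, occurred at 3 places for Bnip3, at 5 for this Vdac1 start, at 1 each for the other Vdac1 start, Pink1 and Bcl2l13, at 0 for Phb2 and Fundc1, and in 32.4% of all windows. A match is a description of letters and not evidence of binding.

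Levels between genes are given per transcript length, in TPM (length-scaled transcript abundance) as deposited by the authors. Vdac1 was the most abundant of the 9 in each of 20 tumours, with 1068 TPM on average and a range of 860 to 1300. Phb2 followed at 774 TPM, Bnip3 at 597, Vdac2 at 417, Vdac3 at 258, Bnip3l at 150.0, Fundc1 at 68.3, Bcl2l13 at 48.8 and Pink1 at 24.5. The order from Vdac2 down to Pink1 was the same in each of 20 tumours. Phb2 exceeded Bnip3 in 16 of 20 tumours and Bnip3 exceeded Vdac2 in 19 of 20, so these 3 neighbours were not separated by their spread. Bnip3 had the widest range of any of them, from 339.9 to 950.1 TPM, while Vdac2 stayed between 364 and 468 TPM.

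**Figure D1:**
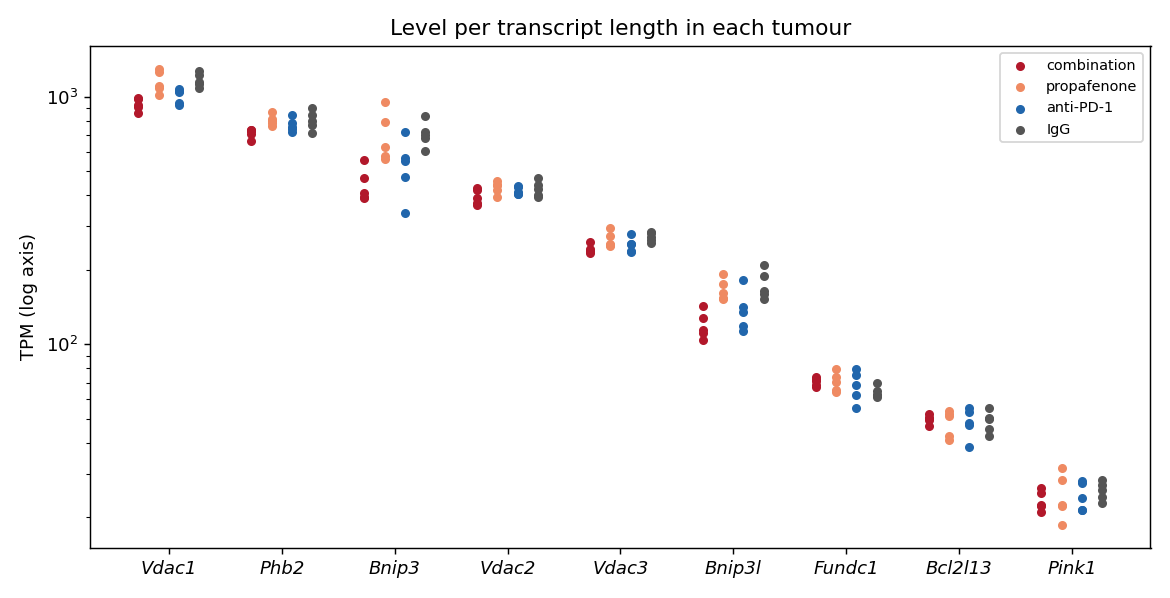
Levels in TPM (log axis) of the 9 genes, ordered by mean, in combination, propafenone, anti-PD-1 and IgG tumours, 1 point per tumour. Vdac1 stands highest at 860 to 1300 TPM and Pink1 lowest at 18.6 to 31.6 TPM, and Bnip3 spreads most.

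Combination tumours had less mRNA of Bnip3, Bnip3l, Vdac1 and Vdac3 than IgG tumours. These 4 of 9 genes fell, 0 rose, and the falls ran from 0.27 to 0.78 on the log2 scale. The test was edgeR's quasi-likelihood test on expected counts with Benjamini-Hochberg adjustment over all tested genes, and a gene was called at an adjusted p under 0.05. By that rule 4.88% of all tested genes were called and 2.63% were called lower, 356 genes being higher and 418 lower. With library totals in place of TMM 368 of 480 called genes were higher, and on log2(TPM + 1) 913 of 1053, while the calls among the 9 genes stayed downward. The median log2 change was -0.27 over the 9 genes and -0.01 over all tested genes. CPM below are counts scaled to a common library total with TMM factors, and they serve to compare tumours for 1 gene. Whole tumours cannot tell fewer cells of a type from less RNA per cell.

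Among the receptors, Bnip3 (ENSMUSG00000078566, GRCm38 chromosome 7, 138890836 to 138909519, minus strand) measured 384, 329, 451, 309.8 and 303 CPM in combination tumours, against 576, 569, 696, 636 and 577 CPM in IgG tumours. Each combination tumour lay below each IgG tumour. The means were 355 ± 62.2 CPM in combination and 611 ± 54.5 CPM in IgG tumours (SD, n = 5 each). The fall was 0.582-fold, a log2 change of -0.78 ± 0.18 (SE, edgeR adjusted p = 0.026). The call ended without IgG replicates 1, 3 or 5 or combination replicates 1, 2, 4 or 5, with adjusted p of 0.051 to 0.082 and log2 changes of -0.81 to -0.73.

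Bnip3l (ENSMUSG00000022051, chromosome 14, 66985239 to 67008877, minus strand) measured 193, 166, 214, 169 and 151 CPM in combination tumours, against 288, 254, 322, 260 and 267 CPM in IgG tumours. The groups did not overlap. Its log2 change was -0.64 ± 0.12 (SE, edgeR adjusted p = 0.012), and its p was number 18 from the smallest over all tested genes. The call held in 19 of 20 fits that left out 1 tumour and ended without IgG replicate 3 (-0.58, adjusted p = 0.056). Without that tumour 0 of the 9 genes and 5 of all tested genes were called, against 774 with it. A transcribed processed pseudogene, Bnip3l-ps, is annotated and may share reads with it. It was not analysed here.

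Phb2, the prohibitin that acts as a receptor from the inner membrane, measured 496, 496, 471, 434.5 and 443 CPM in combination tumours, against 514, 613, 520, 544 and 636 CPM in IgG tumours. No combination tumour reached the lowest IgG tumour, yet the change of -0.27 ± 0.08 did not pass (edgeR adjusted p = 0.061). In TPM the groups overlapped, with 663 to 736 in combination and 717 to 901 in IgG tumours. The other receptors stood closer to no change. Fundc1, a receptor controlled by phosphorylation under low oxygen, had 60.05 to 64.7 CPM in combination and 57.2 to 68.7 CPM in IgG tumours (log2 change 0.01 ± 0.08, adjusted p = 0.97). Bcl2l13, a mammalian counterpart of the yeast receptor Atg32, had 147 to 166 and 141 to 186 CPM in combination and IgG tumours (-0.07 ± 0.10, adjusted p = 0.7). The signs of both are not fixed: Fundc1 was below 0 in 4 of 20 fits without 1 tumour, and Bcl2l13 stood at 0.006 when library totals replaced TMM and at 0.033 on log2(TPM + 1). Pink1 had 23.1 to 28.8 CPM in combination and 28.8 to 32.0 CPM in IgG tumours, touching at the ends (-0.24 ± 0.13, adjusted p = 0.28).

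Among the channels, Vdac1 (ENSMUSG00000020402, chromosome 11, 52360860 to 52389397, plus strand) measured 916, 799, 920, 831 and 829 CPM in combination tumours, against 1064, 1182, 1224, 1163 and 1197 CPM in IgG tumours. All combination tumours were below all IgG tumours. The log2 change was -0.44 ± 0.09 (SE, edgeR adjusted p = 0.017). It lost its call without IgG replicate 3 (-0.42, adjusted p = 0.061) or IgG replicate 5 (-0.41, adjusted p = 0.055). Vdac3 (ENSMUSG00000008892, chromosome 8, 22577075 to 22593813, minus strand) measured 154, 149, 149, 145 and 156 CPM in combination tumours, against 174, 185, 182, 181 and 189 CPM in IgG tumours. These groups were apart in CPM, but in TPM they met, at 235 to 258.5 in combination and 256 to 285 in IgG tumours. The change was -0.27 ± 0.07 (edgeR adjusted p = 0.035). A pseudogene, Vdac3-ps1, may share reads with it and was not analysed here. The Vdac3 call ended in 11 of 20 fits without 1 tumour, namely any IgG or combination tumour or anti-PD-1 replicate 3 (adjusted p 0.053 to 0.12), and at adjusted p = 0.057 with RLE size factors and 0.096 on log2(TPM + 1). Vdac2, which holds the pro-apoptotic protein BAK in check, measured 378, 324, 386.5, 328 and 337 CPM in combination tumours, against 400.0, 434, 361, 391 and 446 CPM in IgG tumours. The groups overlapped and the change of -0.21 ± 0.08 did not pass (adjusted p = 0.098).

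In all, 5 of the 9 genes had groups apart in CPM, each lower in the combination. Of all tested genes 11.9% were apart and 7.21% were apart in that direction. An exact two-sided permutation test of CPM over the 10 tumours gave p = 0.0079 for each of these 5, the smallest p that 5 tumours against 5 allow. Groups that lie apart always reach this p, so it adds nothing to their separation. It gave 0.016 for Pink1, 0.04 for Vdac2, 0.43 for Bcl2l13 and 0.89 for Fundc1, unadjusted. The summed VDAC level was 1570 ± 82.2 TPM in combination tumours and 1870 ± 92.4 TPM in IgG tumours (SD, n = 5 each). Vdac1 made up 58.8 to 59.9% of that sum in combination tumours and 61.2 to 65.4% in IgG tumours, without overlap. Vdac2 made up 24.6 to 26.0% and 20.2 to 24.1%, also without overlap, and Vdac3 14.4 to 16.4% and 14.4 to 14.8%, in the same order of groups. These shares are parts of 1 sum, so the separations of Vdac1 and Vdac2 are not independent. In anti-PD-1 tumours Vdac1 made up 59.1 to 61.2% and Vdac2 24 to 25.8%, and both overlapped the combination. In propafenone tumours Vdac1 made up 61.1 to 63.9%, apart from the combination, and Vdac2 22.2 to 24.8%, overlapping it. No background over all genes was computed for such shares. The ratio of Bnip3 to Bnip3l in TPM was 3.41 to 3.91 in combination and 3.71 to 4.51 in IgG tumours and overlapped.

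**Figure D2:**
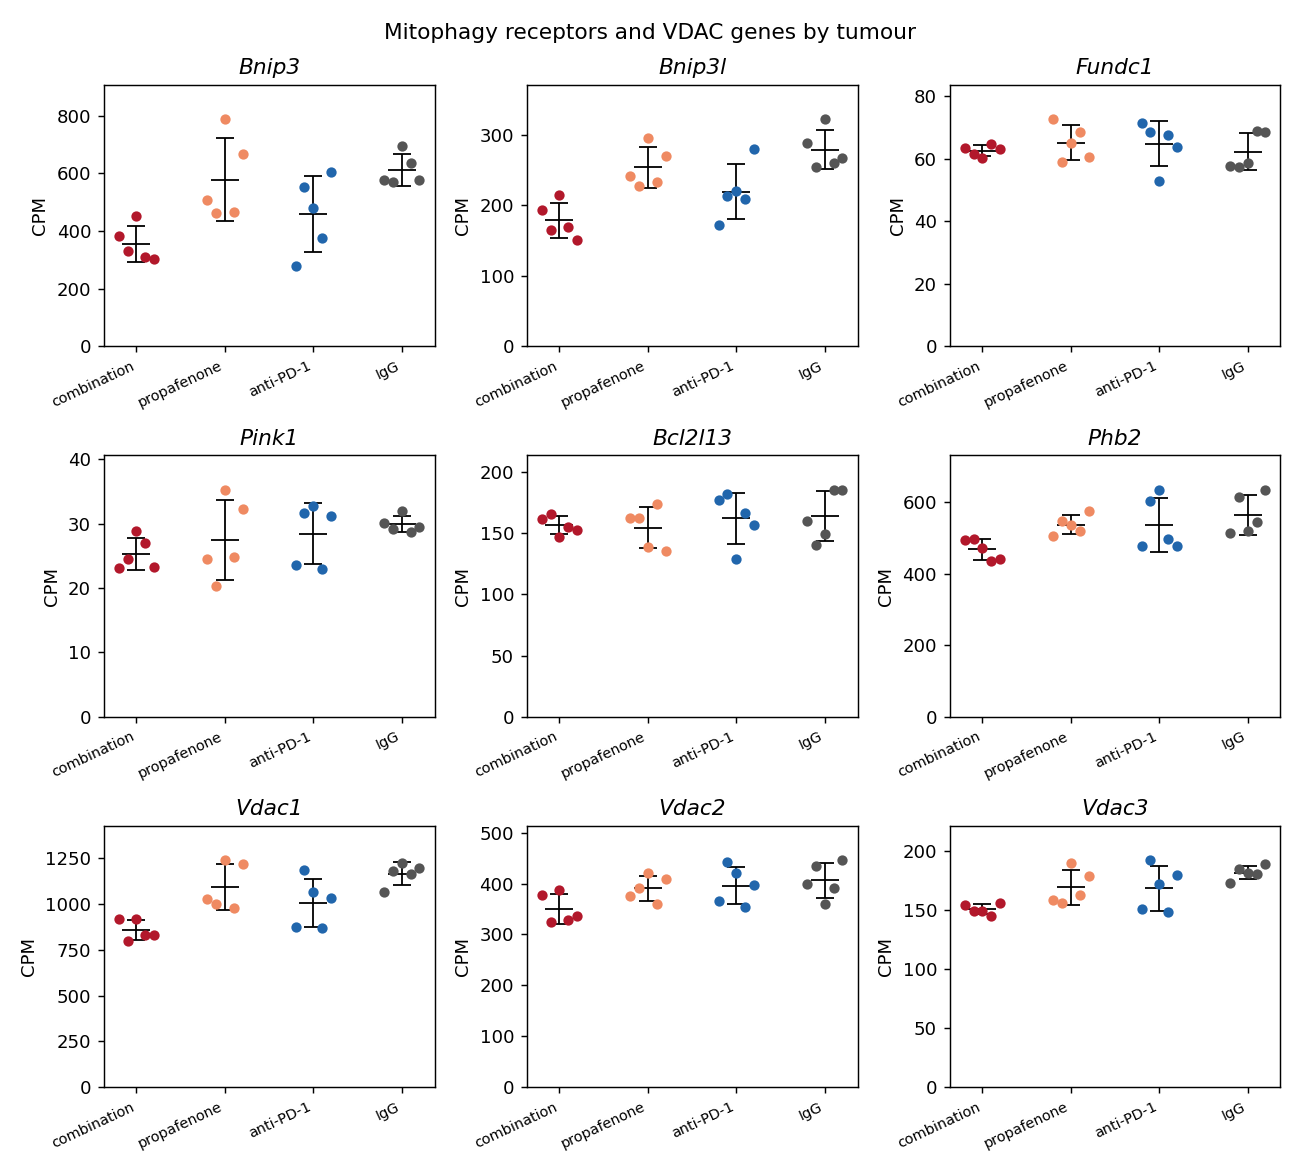
CPM of each gene by tumour in the combination, propafenone, anti-PD-1 and IgG groups, with points for single tumours and bars for mean and SD (n = 5). In combination tumours Bnip3, Bnip3l, Phb2, Vdac1 and Vdac3 lie below each IgG tumour, and Fundc1 and Bcl2l13 overlap in all groups.

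Other cell types differed between the same tumours. Skeletal muscle markers summed to 39.6 to 539 CPM in combination and 6.76 to 78.5 CPM in IgG tumours (6 of 10 rose), macrophage markers to 218 to 481 and 42.8 to 195 CPM (9 of 13 rose), and fibroblast markers to 537 to 1260 and 142 to 523 CPM (5 of 8 rose). Red blood cell markers summed to 172 to 453 CPM in combination and 290 to 11700 CPM in IgG tumours, and 2 of 7 fell. Melanocyte markers, which define the line, summed to 22200 to 24700 and 18000 to 25000 CPM in combination and IgG tumours, with 0 of 10 called. Of the T cell markers 0 of 8 were called (2.43 to 12.3 and 0.834 to 5.24 CPM in combination and IgG tumours), and of the adipocyte markers 0 of 6 (21.7 to 41.7 and 15.5 to 32.6 CPM). Keratinocyte markers summed to 0.0789 to 28.3 CPM in combination and 0 to 0.355 CPM in IgG tumours, with 0 of 6 called and Krt1, Krt15 and Lor at 0 in all IgG tumours. Endothelial markers summed to 407 to 498 and 379 to 510 CPM, with 1 of 7 higher. The muscle list's mean log2 CPM was then added as a covariate. Bnip3l stood at -0.44 (edgeR adjusted p = 0.19), Vdac1 at -0.24 (0.29), Bnip3 at -0.38 (0.43) and Vdac3 at -0.14 (0.48). By edgeR 0 of all tested genes was called in that fit, 2488 being at an unadjusted p under 0.05. The muscle sum of each combination tumour but replicate 3 exceeded that of each IgG tumour. That fit therefore cannot tell muscle from treatment. Without the 5 libraries above 1000 CPM of the haemoglobin gene Hbb-bs, of which 2 are IgG, 2 propafenone and 1 anti-PD-1 tumours, Bnip3l (-0.68, 0.019) and Vdac1 (-0.42, 0.02) were called and Bnip3 (-0.78, 0.055) and Vdac3 (-0.24, 0.078) were not. The part of the macrophage and fibroblast markers in these results was not tested.

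The combination was also set against propafenone alone, which asks what anti-PD-1 adds to the drug. Bnip3, Bnip3l and Vdac1 fell, 3 of 9 genes, where 3.88% of all tested genes were called and 2.21% were called lower. Bnip3 measured 303 to 451 CPM in combination tumours, against 506, 461, 788, 466 and 665 CPM in propafenone tumours, and the groups did not overlap. Its log2 change, combination over propafenone, was -0.70 ± 0.18 (edgeR adjusted p = 0.04). Bnip3l was 151 to 214 CPM in combination and 228 to 296 CPM in propafenone tumours (-0.51 ± 0.12, adjusted p = 0.027), and Vdac1 799 to 920 and 977 to 1240 CPM (-0.35 ± 0.09, adjusted p = 0.035). Phb2 was apart as well, at 434.5 to 496 CPM in combination and 507 to 574 CPM in propafenone tumours, and did not pass (-0.20, adjusted p = 0.16). These 4 genes lay apart, where 8.52% of all tested genes were apart and 4.88% in that direction. Vdac2 (-0.16, 0.22), Vdac3 (-0.17, 0.16), Pink1 (-0.12, 0.63), Fundc1 (-0.06, 0.71) and Bcl2l13 (0.02, 0.93) did not pass.

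Leaving out single tumours changed these calls. Without propafenone replicate 3, the tumour with the highest Bnip3 of all 20, Bnip3 stood at -0.55 and 0 of the 9 genes was called, and calls over all tested genes numbered 4, against 616 with that tumour. The Bnip3l call also ended without propafenone replicate 5 or combination replicates 1, 2, 4 or 5 (adjusted p 0.051 to 0.12 over the 6 fits). The Bnip3 and Vdac1 calls ended in 11 and 10 of 20 fits, at adjusted p of 0.053 to 0.18 and 0.05 to 0.17. For both these were the fits without IgG replicates 4 or 5, propafenone replicates 1, 3 or 5 or any combination tumour, and for Bnip3 also without IgG replicate 1. The Bnip3 call further ended at adjusted p = 0.054 with library totals, 0.062 without the filter and 0.069 without the libraries high in Hbb-bs. Muscle markers summed to 39.6 to 539 CPM in combination and 14.1 to 69.9 CPM in propafenone tumours (4 of 10 rose), fibroblast markers to 537 to 1260 and 116 to 264 CPM (6 of 8 rose) and macrophage markers to 218 to 481 and 65.4 to 213 CPM (2 of 13 rose). Red blood cell markers summed to 172 to 453 CPM in combination and 770 to 6590 CPM in propafenone tumours without overlap (1 of 7 fell), and endothelial markers to 407 to 498 and 305 to 449 CPM (2 of 7 rose). The part of the fibroblast, macrophage and endothelial markers was not tested. With the muscle score as a covariate Bnip3l stood at -0.39 (adjusted p = 0.078), Bnip3 at -0.45 (0.16) and Vdac1 at -0.22 (0.13). By edgeR 837 of all tested genes were called in that fit, against 616 without the covariate, and 0 of the 9 genes was. As against IgG, the muscle sum of each combination tumour but replicate 3 exceeded that of each propafenone tumour. Muscle and treatment cannot be told apart by this fit.

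**Figure D3:**
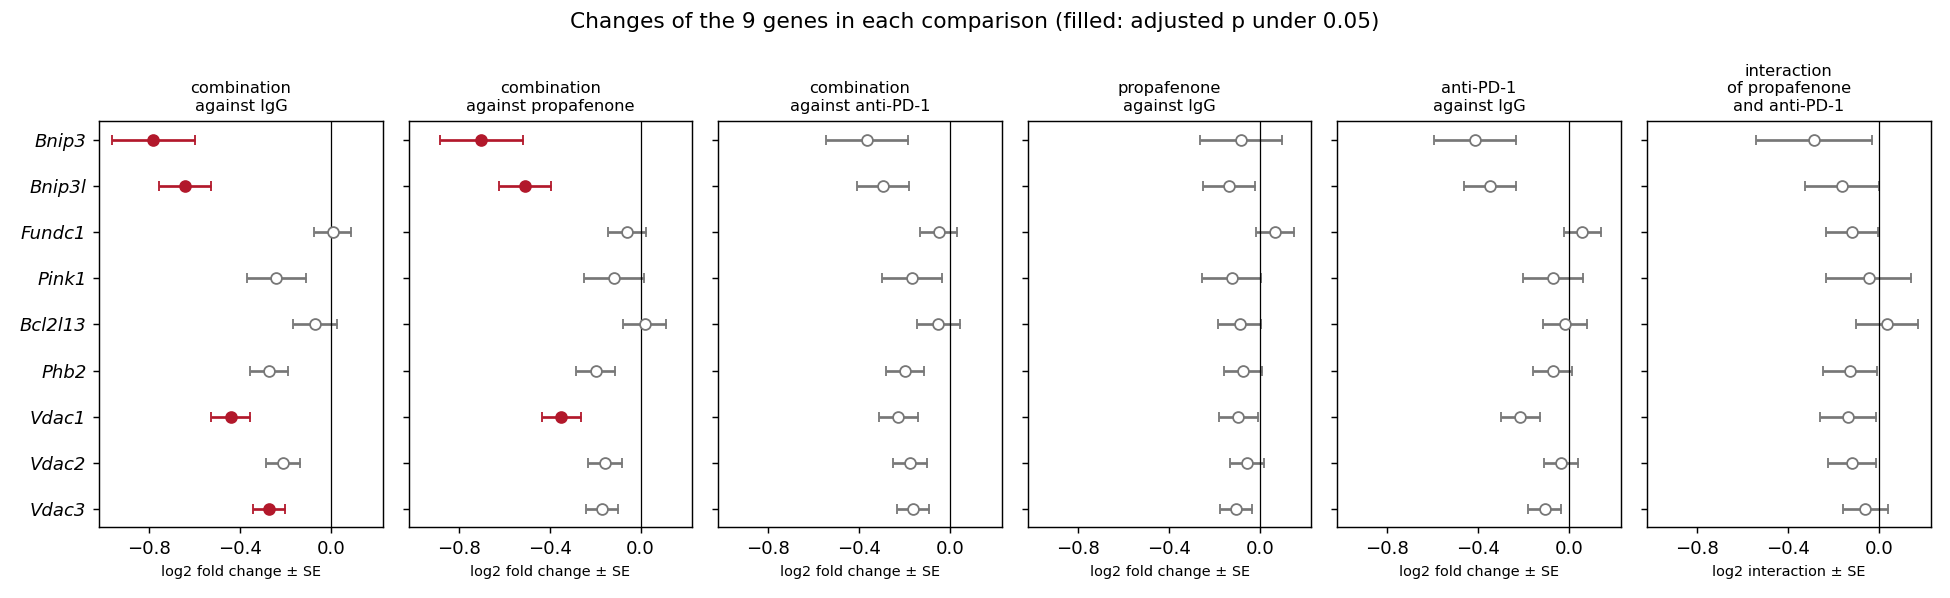
Log2 fold changes with SE of the 9 genes in 5 comparisons and the interaction, with filled points for adjusted p under 0.05. Bnip3, Bnip3l, Vdac1 and Vdac3 are filled for combination against IgG and Bnip3, Bnip3l and Vdac1 for combination against propafenone, and no point is filled elsewhere.

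For the combination against anti-PD-1 alone 0 of the 9 genes was called by edgeR, DESeq2 or limma on TPM. Among all tested genes edgeR called 0 (0%) and limma on log2(TPM + 1) called 2. DESeq2, run without the filter on 22353 genes, called 7. All 9 genes overlapped between combination and anti-PD-1 tumours, and 2.37% of all tested genes did not. Bnip3 was 303 to 451 CPM in combination and 278, 552, 480.3, 376 and 604 CPM in anti-PD-1 tumours, where its coefficient of variation, 28.8%, was the highest of the 4 groups. Its log2 change was -0.37 ± 0.18 (adjusted p = 0.52), that of Bnip3l -0.30 ± 0.11 (0.45), of Vdac1 -0.23 ± 0.09 (0.45), of Phb2 -0.20 (0.46), of Vdac2 -0.18 and of Vdac3 -0.16 (both 0.47). At an unadjusted p under 0.05 stood 5 of the 9 genes, Bnip3l, Phb2 and the 3 channels, against 9.78% of all tested genes. That count varied with the setting. It was 6 with the replicate block, 5 with counts divided by 4 or no filter, 4 with RLE factors and 3 with DESeq2. It was 1 with library totals, 0 on TPM, 1 without the libraries high in Hbb-bs and 0 with the muscle covariate. Pink1 (-0.17), Fundc1 (-0.05) and Bcl2l13 (-0.05) had adjusted p of 0.68 to 0.87, and on TPM the last 2 stood at 0.06 and 0.05.

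For anti-PD-1 alone against IgG edgeR, DESeq2 and limma on TPM called 0 of the 9 genes. Among all tested genes edgeR called 0 (0%) and limma 0, and DESeq2 called 26 of its 22353 genes. None of the 9 genes was apart, as were 0.951% of all tested genes. Bnip3l measured 172, 214, 219, 209 and 279.9 CPM in anti-PD-1 tumours, of which 4 lay below the lowest IgG tumour at 254 CPM. Its log2 change was -0.35 ± 0.11 (edgeR adjusted p = 0.49, exact permutation p = 0.032). Bnip3 stood at -0.41 ± 0.18 (adjusted p = 0.61) and Vdac1 at -0.21 ± 0.09 (0.59), and these 3 were the genes at an unadjusted p under 0.05, as were 7.58% of all tested genes. Vdac1 was 874, 1183, 1064, 871 and 1035 CPM in anti-PD-1 tumours, overlapping the ranges of combination and of IgG tumours. The other 6 genes lay between -0.11 and 0.06, with adjusted p of 0.78 to 0.99.

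For propafenone alone against IgG edgeR, DESeq2 and limma on TPM called 0 of the 9 genes. Among all tested genes edgeR called 0 (0%) and limma 0, and DESeq2 called 4 of its 22353 genes. At an unadjusted p under 0.05 stood 0 of the 9 genes and 4.75% of all tested genes, and 0 of the 9 and 1.23% of all were apart. Bnip3 was 461 to 788 CPM in propafenone and 569 to 696 CPM in IgG tumours (log2 change -0.08 ± 0.18), and Bnip3l 228 to 296 and 254 to 322 CPM (-0.13 ± 0.11). Vdac1 measured 1093 ± 127 CPM in propafenone and 1166 ± 61.4 CPM in IgG tumours (SD, n = 5 each, -0.09 ± 0.09). All 9 changes were within -0.13 and 0.07, at adjusted p of 0.91 to 0.97. For Phb2 and Vdac2, at -0.07 and -0.06, the sign was the other way on log2(TPM + 1), at 0.001 and 0.015.

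The interaction, the combination effect beyond the sum of both single effects on the log2 scale, was called for 0 of the 9 and 0 of all tested genes (0%) by edgeR, DESeq2 and limma, and 0 of the 9 had an unadjusted p under 0.05, against 3.04% of all tested genes. It was -0.29 ± 0.26 for Bnip3, -0.16 ± 0.16 for Bnip3l and -0.13 ± 0.12 for Vdac1, all at adjusted p = 0.99. The comparisons share tumours: the 3 against IgG use the same IgG tumours, and the 3 with the combination the same combination tumours, so their values for a gene are not independent.

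Within groups Fundc1 and Bcl2l13 varied apart from the other 7 genes. With group means removed, Pearson's r of log2 CPM over 20 tumours was 0.89 for Vdac1 with Vdac3, 0.88 for Bnip3 with Bnip3l, 0.86 for Bnip3 with Vdac1 and 0.81 for Bnip3 with Pink1. Fundc1 and Bcl2l13 varied together (0.81) and had negative r with each of the other 7 genes, down to -0.55 for Pink1 with Bcl2l13. Of 36 pairs 21 were positive and the median r was 0.41. Bnip3 and Bnip3l had their highest value in the same tumour in each of the 4 groups, replicate 3 of combination, propafenone and IgG and replicate 5 of anti-PD-1. Phb2 went with Vdac2 (0.70) and Vdac1 (0.55) but not with Bnip3l (-0.01). These r share library scaling and cell make-up and are given without a test.

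**Figure D4:**
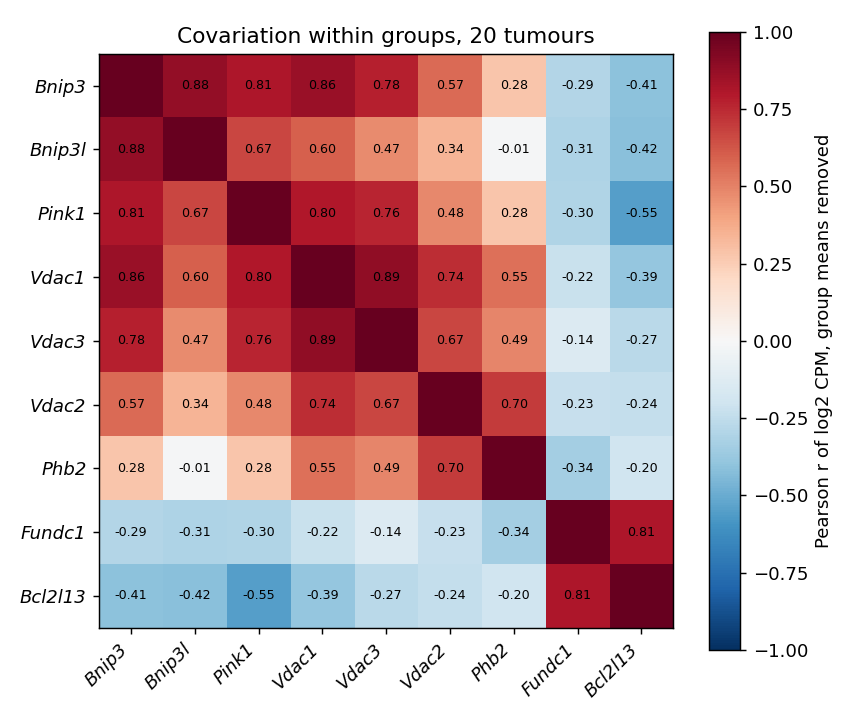
Pearson's r between the 9 genes over 20 tumours, from log2 CPM with group means removed, from blue (-1) to red (1). Bnip3, Bnip3l, Pink1 and the 3 VDAC genes form a positive set (0.34 to 0.89), and Fundc1 pairs with Bcl2l13 (0.81).

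For each gene that fell, the 3 genes of most similar within-group pattern over 20 tumours were taken by the same r. Those of Bnip3 were Pfkp, a phosphofructokinase of glycolysis (0.96), Mpp2, a membrane scaffold gene (0.96), and Ero1l, an oxidase of the endoplasmic reticulum induced in hypoxia (0.95). Those of Bnip3l were Fam168a (0.94), Kdm5b, a histone demethylase (0.91), and Wnk4, a kinase of ion transport (0.88). Those of Vdac1 were the glycolytic isomerase Gpi1 (0.96), the peroxiredoxin Prdx5 (0.95) and the cysteine protease inhibitor Cst6 (0.95). Those of Vdac3 were Churc1 (0.91), the lysosomal sulfatase Galns (0.90) and A330049N07Rik (0.90), the last at a mean of 0.368 CPM. In combination against IgG tumours Ero1l (-1.05, edgeR adjusted p = 0.039), Mpp2 (-1.22, 0.029), Fam168a (-0.40, 0.028), Kdm5b (-0.58, 0.037), Wnk4 (-0.51, 0.045) and Gpi1 (-0.55, 0.029) fell as well, and the other 6 did not pass.

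The other genes of these pathways were counted by list in combination against IgG tumours. The background for each list is the 2.63% of all tested genes called lower. Of 31 HIF target genes 8 fell and 0 rose, with a median log2 change of -0.42 against -0.01 over all tested genes. The lactate dehydrogenase Ldha (-0.37 ± 0.08, edgeR adjusted p = 0.018), the enolase Eno1 (-0.38 ± 0.08, 0.019) and the pyruvate dehydrogenase kinase Pdk1 (-0.56 ± 0.12, 0.021) had the smallest p. Ldha averaged 2470 CPM in combination and 3180 CPM in IgG tumours. Of 33 genes of the mitophagy machinery 2 fell (median -0.07): Parl, the rhomboid protease that cleaves PINK1 (-0.32 ± 0.08, 0.032), and Csnk2b, the regulatory subunit of the kinase CK2, which phosphorylates FUNDC1 (-0.26 ± 0.07, 0.048). These 2 of 33 are near the background share, and both calls ended with RLE size factors, library totals and the TPM values.

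Of 21 tested VDAC partners 1 fell (median -0.14), the ADP/ATP carrier Slc25a5 of the inner membrane (-0.23 ± 0.06, edgeR adjusted p = 0.029). This 1 of 21 is near the background share as well, and the call ended with RLE size factors (0.051), library totals (0.12) and log2(TPM + 1) (0.26). Of 11 genes that work with prohibitins or at the inner membrane 2 fell (median -0.12): Prelid1, a lipid transfer protein of the intermembrane space (-0.35 ± 0.06, 0.012), and the matrix protease Lonp1 (-0.33 ± 0.06, 0.012). Of 11 tested fission and fusion genes 0 were called (median -0.08), and the smallest p belonged to Mff, a receptor of the fission GTPase (-0.22 ± 0.07, 0.061). Of 16 genes taken as a gauge of mitochondrial content 2 fell (median -0.15), the import pore Tomm40 (-0.28 ± 0.07, 0.026) and the citrate synthase Cs (-0.21 ± 0.06, 0.039). The Cs call ended with RLE size factors (0.068), library totals (0.085) and log2(TPM + 1) (0.19), and the Tomm40 call on log2(TPM + 1) (0.082). No gene of these 6 lists rose in the TMM-scaled test. On TPM and without the libraries high in Hbb-bs 1 content gene, the chaperonin Hspe1 (named after its values were seen), was called higher. Without IgG replicate 3 the counts of HIF targets, inner membrane genes and content genes called were 0, and 5 of all tested genes were called.

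**Figure D5:**
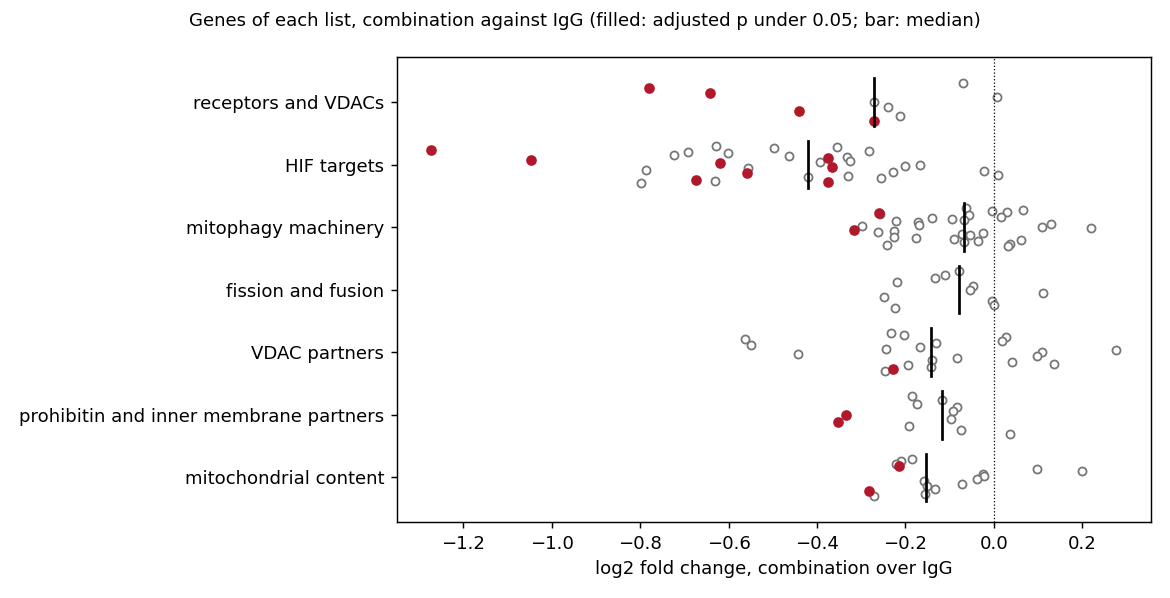
Log2 fold changes, combination over IgG, of the genes of each list, with filled points for adjusted p under 0.05 and a bar for the list's median. HIF targets lie furthest to the left (median -0.42), and most genes of the mitophagy machinery lie near 0 (median -0.07).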

How the data were processed

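RNA sequencing of 20 whole tumours was used. The labels name a SMARTER mRNA kit. The deposited expected counts are estimated reads per gene in whole numbers, not scaled to a common total. TPM are a separate table deposited by the authors. Tools in the submitters' processing notes are HISAT2 2.2.1, SAMtools 1.9 and FastQC, with builds GRCm38 and mm10. The counting tool, annotation release and strand setting are not given in the sources used here. Antisense and overlapping genes therefore cannot be told apart from their partners: Gm45507 for Bnip3 (mean 0.0121 CPM), Bid for Bcl2l13 (24.2 CPM), Comtd1 for Vdac2 (32.7 CPM) and Gm15884 for Phb2 (0.489 CPM). Totals averaged 62.4, 62.4, 60.6 and 60.4 M counts per library in combination, propafenone, anti-PD-1 and IgG tumours. Low counts were bunched: of the values from 1 to 10, 24.8% were 4 and 11% were 8, against 11.8% at 3 and 11.6% at 5. How many counts stand for 1 fragment is therefore not known, and counts divided by 4 were tried.

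Counts entered the quasi-likelihood test of edgeR 4.0.16 (R 4.3.3) with TMM factors, filterByExpr, 1 mean per group, a robust fit and 16 residual degrees of freedom. An SE is the log2 change over the root of the F statistic. Tested genes held 99.98% of counts. The procedure was tried on simulated counts drawn from the fitted means and spread. These held no bunching, no difference in cell make-up and no changes as small as those of Vdac1 and Vdac3, so they do not bear on these. Correlations used log2 CPM with a prior count of 2. Alternatives were RLE factors, library totals, DESeq2 1.42.0, no filter, limma 3.58.1 on log2(TPM + 1) and log2(TPM + 0.1), a replicate block, and each library left out. Counts divided by 4, a skeletal muscle covariate and leaving out 5 libraries high in Hbb-bs were added after seeing the data. Named were the 9 genes, from each list up to 3 called genes per direction by smallest p (otherwise the 1 with the smallest p), and for each called gene the 3 of most similar pattern. The members and lists were chosen with earlier results of these data known. Gene positions are from GENCODE M21 on GRCm38.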

Additional observations from a re-analysis of the deposited data

How the results depend on the processing

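For combination against IgG the count of the 9 genes called was 4, and 4 with DESeq2 and with the replicate block. It was 3 with RLE factors, library totals, no filter, TPM and counts divided by 4, each time without Vdac3. Leaving out 1 library gave 0 (without IgG replicate 3) to 5 (without anti-PD-1 replicate 2). It was 2 without the libraries high in Hbb-bs and 0 with the muscle covariate. For combination against propafenone the count was 3, 3 with the replicate block, 0 to 3 without 1 library and 0 with the muscle covariate, where edgeR called 837 of all tested genes.

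Among the lists, mitophagy machinery had 0 calls with RLE factors, library totals, TPM, counts divided by 4 and the muscle covariate, 1 with no filter or the replicate block, and 0 to 3 without 1 library. VDAC partners had 0 calls under the same first 5 settings, 2 with DESeq2 or the block, and 0 to 2 without 1 library. Mitochondrial content had 1 call with RLE factors, library totals, no filter, the block, counts divided by 4 and TPM (there a higher one), 0 with the muscle covariate, and 0 to 4 without 1 library. HIF targets had 14 calls with DESeq2, 5 with no filter or without the libraries high in Hbb-bs, 0 with the muscle covariate and 0 to 12 without 1 library. Inner membrane partners had 0 with the muscle covariate and 0 to 3 without 1 library, and fission and fusion had 1 without the libraries high in Hbb-bs. Genes called for combination against IgG numbered 774, 480 with library totals and 5 (without IgG replicate 3) to 1067 without 1 library. They numbered 463 with no filter, of 22372 genes, and 1408 with DESeq2, of 22353 genes. For combination against propafenone they numbered 616, 347 with library totals, 335 with no filter, 1458 with DESeq2, 1142 without the libraries high in Hbb-bs and 4 (without propafenone replicate 3) to 1882 without 1 library.

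Among the 9 genes, signs changed only for values that were not called. Bcl2l13 turned for combination against IgG with library totals (0.006), TPM (0.033 and 0.034), without the libraries high in Hbb-bs (0.074), with the muscle covariate (0) and without 1 library (-0.118 to 0.007). It turned for combination against anti-PD-1 with library totals (0.009), TPM (0.047 and 0.048) and without the libraries high in Hbb-bs (0.003). For anti-PD-1 against IgG it turned without those libraries (0.071), with counts divided by 4 (0.003), with the muscle covariate (0.024) and without 1 library (-0.071 to 0.068). It also turned for propafenone against IgG (0.047) and the interaction (-0.043) without the libraries high in Hbb-bs, and without 1 library for the interaction (-0.034 to 0.093) and combination against propafenone (-0.02 to 0.067). Fundc1 turned for combination against anti-PD-1 with library totals (0.009) and TPM (0.058 and 0.059), for combination against propafenone with TPM (0.002), and for combination against IgG without 1 library (-0.019 to 0.075). Pink1 turned in the interaction with TPM (0.014 and 0.015), without the libraries high in Hbb-bs (0.065) and without 1 library (-0.135 to 0.06). With the muscle covariate Pink1 stood at 0.01 for combination against IgG, 0.081 for anti-PD-1 against IgG and 0.041 for combination against propafenone, where it ranged from -0.208 to 0.008 without 1 library. Phb2 (0.001) and Vdac2 (0.015) turned for propafenone against IgG with TPM, Vdac2 for anti-PD-1 against IgG with the muscle covariate (0.04) and without 1 library (-0.076 to 0.015), and Bnip3 for propafenone against IgG with the muscle covariate (0.068). The cause was not tested in any of these.

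The median log2 change of all tested genes for combination against IgG was -0.01, 0.06 with library totals and 0.10 on log2(TPM + 0.1). Same-numbered tumours did not deviate together on average (mean r -0.00694 over 30 pairs, range -0.41 to 0.369, 8 over 0.1). Of 20 tumours 7 correlated best with a tumour of their own number, and no chance level was computed for that count.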
